A study of Mus musculus with 6 samples.

Results

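Small nucleolar RNA (snoRNA) genes were examined in RNA-seq counts of mouse skin. The members were the genes of the count table whose symbol begins with Snord or Snora followed by a digit, 114 of 27179 genes, of which 76 were C/D box (Snord) and 38 were H/ACA box (Snora) genes. They were chosen by measured values, a low level in the control library that an earlier account of the same counts had named, so every value of the control library is given here as a description that no test supports. The study used skin of BALB/c females, 6 to 8 weeks old, in 4 groups with 6 libraries in all. The EHP-101 group received bleomycin and EHP-101, in which the cannabidiol aminoquinone VCE-004.8 is formulated for oral use, and had 1 library. The ajulemic acid group received bleomycin and ajulemic acid, a synthetic cannabinoid, and had 3 libraries. The bleomycin group received bleomycin, an agent that makes mouse skin fibrotic, and had 1 library, and the control group was not labelled with any agent and had 1 library. Doses, times and the vehicle given to controls are not in the labels, and no label says that the ajulemic acid libraries are of different animals. The p-values therefore cover the spread among these libraries alone, which may be technical. All 3 single libraries carry the replicate number 3, and other control libraries were not analysed here, so whether the control level holds in a further control library was not tested.

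Small nucleolar RNAs are short stable RNAs that work with proteins in the nucleolus. C/D box snoRNAs guide 2′-O-methylation of ribosomal RNA and are bound by fibrillarin, whereas H/ACA box snoRNAs guide the change of uridine to pseudouridine and are bound by dyskerin. A few, among them the H/ACA RNA U17 (Snora73) and the C/D RNAs U3, U8 (Snord118) and U22 (Snord22), are known from yeast, Xenopus or human cells to be needed for cutting the ribosomal RNA precursor. In mammals most are not transcribed from a promoter of their own but are trimmed out of introns of host genes, many of which encode ribosomal proteins or long noncoding RNAs. Libraries made from total RNA on silica columns hold RNAs of this size only in part.

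The annotation placed 101 of the 114 genes inside an intron of a gene on the same strand, 6 over an exon of such a gene and 7 in no gene, Snord118 and Snord13 (U13) among them. The median annotated length, that of the counted span, was 68 bp for C/D genes and 120.5 bp for H/ACA genes, within an overall range of 28 to 221 bp. By position, 113 members could be matched to a GENCODE M21 snoRNA transcript of the GRCm38 (mm10) assembly. The transcript length often differed from the counted span, as for Snord17, counted over 221 bp and printed at 238 bp. The following 5 C/D box sequences are shown because the first 4 carried most of the C/D counts in every library but the control library. Snord100 is the abundant C/D gene that was not low in the control library. They are printed 5′ to 3′ on the RNA strand with T for U, and capitals mark TGATGA (the C box core) within the first 30 bases and CTGA (the D box) within the last 15 bases.
Snord17: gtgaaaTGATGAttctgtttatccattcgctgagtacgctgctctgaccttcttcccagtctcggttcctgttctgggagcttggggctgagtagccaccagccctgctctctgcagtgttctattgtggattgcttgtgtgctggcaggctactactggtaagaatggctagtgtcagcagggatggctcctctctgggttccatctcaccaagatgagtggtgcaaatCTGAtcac
Snord15b: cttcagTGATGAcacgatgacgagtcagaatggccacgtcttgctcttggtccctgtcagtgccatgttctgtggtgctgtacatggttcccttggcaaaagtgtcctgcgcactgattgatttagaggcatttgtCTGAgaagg
Snord15a: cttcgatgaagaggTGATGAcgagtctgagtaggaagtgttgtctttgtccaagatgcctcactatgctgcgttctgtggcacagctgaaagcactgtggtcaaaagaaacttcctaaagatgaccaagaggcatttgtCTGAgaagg
Snord22: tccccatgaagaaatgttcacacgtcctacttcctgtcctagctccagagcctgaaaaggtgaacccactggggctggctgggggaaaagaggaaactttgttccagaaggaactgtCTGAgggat
Snord100: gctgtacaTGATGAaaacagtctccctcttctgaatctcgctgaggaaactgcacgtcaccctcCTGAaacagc

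These transcripts lie at chr2:144265979-144266216 (minus strand), chr7:99479563-99479707 (minus), chr7:99482785-99482932 (minus), chr19:8725866-8725991 (plus) and chr10:23785750-23785823 (minus), in introns of Snx5, Rps3, Rps3, Snhg1 and Rps12. TGATGA stood within the first 30 bases of 50 of 75 matched C/D members (66.7%) and of 0 of 38 H/ACA members, against 22.0% of all 1507 GENCODE M21 snoRNA transcripts. CTGA stood within the last 15 bases of 69 of 75 C/D members (92.0%) and of 2 of 38 H/ACA members (5.26%), against 31.4% of all transcripts. Snord22 had no TGATGA in that window, which says only that these letters are not there.

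The next 3 sequences are abundant H/ACA box members, with the ACA box that stands 3 bases before the 3′ end in capitals.
Snora73a: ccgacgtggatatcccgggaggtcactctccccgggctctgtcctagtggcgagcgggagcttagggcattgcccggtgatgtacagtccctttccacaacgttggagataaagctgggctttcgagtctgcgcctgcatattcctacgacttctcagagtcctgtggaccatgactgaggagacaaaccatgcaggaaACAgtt
Snora78: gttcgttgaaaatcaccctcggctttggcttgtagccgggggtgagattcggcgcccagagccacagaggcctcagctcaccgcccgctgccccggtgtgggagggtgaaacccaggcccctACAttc
Snora7a: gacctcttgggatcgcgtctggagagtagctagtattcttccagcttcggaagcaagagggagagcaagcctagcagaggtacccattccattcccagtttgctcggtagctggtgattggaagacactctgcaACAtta

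They lie at chr4:132352775-132352979, chr17:24719676-24719803 and chr6:115807975-115808114, all on the minus strand, in introns of Snhg3, Snhg9 and Rpl32. ACA stood at this position in 32 of 38 H/ACA members (84.2%) and in 0 of 75 C/D members, against 18.3% of all 1507 transcripts. The sets were named from their symbols, which stand for the box class, so the split of these letters between them is no independent check. The split was also incomplete, as the shares above show. Snora73a was 96.6% identical to Snora73b, which had 0 counts in every library, so how reads were shared between these copies is uncertain. The same holds for Snord14c and Snord14d (97.7% identical), Snord1b and Snord1c (98.7%), and Snord88a and Snord88c (94.4%).

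Total counts per library were 15483701 in the EHP-101 library, 14291592, 18639641 and 19837682 in the ajulemic acid libraries, 15542255 in the bleomycin library and 15728362 in the control library. The snoRNA genes together held 8348 counts in the EHP-101 library, 8745, 9059 and 11346 in the ajulemic acid libraries, 8947 in the bleomycin library and 2519 in the control library. Epidermal marker genes (Krt5, Krt10, Dsp and others, 6 of 6 listed) summed to between 10842 and 17026 CPM (counts scaled to a common library size) in all 6 libraries, so epidermal transcripts were present in each. Marker sums of other tissues differed between libraries and are given below beside the results.

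In all, 11 members had 0 counts in all 6 libraries, 6 C/D and 5 H/ACA genes. Of the 8 members whose span overlaps an exon of another gene on the same strand, 7 were at 0, among them Snora24 in Snhg8, Snora26 in Dancr and Snord1a in Snhg16, whereas 4 of the other 106 were at 0. A further 28 members had counts but stayed below the filter on low counts, with at most 12 counts in any library. The filter kept 75 members, 46 C/D and 29 H/ACA, and kept a gene that reached the minimum in 1 library only, so the counts of members below describe these 75 and not all 114. Summed levels use all members.

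The C/D box genes summed to 261 CPM in the EHP-101 library, 263, 266 and 265 CPM in the ajulemic acid libraries and 293 CPM in the bleomycin library, against 67.9 CPM in the control library. CPM values carry edgeR's TMM scaling, and in bulk skin, fewer cells of a type and less RNA per cell cannot be told apart. The control sum was 25.2% of the mean of the other 5 libraries, which lay within a narrow band from 261 to 293 CPM. The H/ACA genes summed to 249 CPM with EHP-101, 333, 253 and 301 CPM with ajulemic acid and 281 CPM with bleomycin, against 97.6 CPM in the control library, or 34.4% of the mean of the other 5. Among the ajulemic acid libraries the C/D sum averaged 265 ± 1.63 CPM and the H/ACA sum 296 ± 40.4 CPM (SD, n = 3). The SD depended on the scaling, at 11.3 and 53.3 CPM with library totals, and the C/D SD was 14.97 CPM without Snord17.

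**Figure D1:**
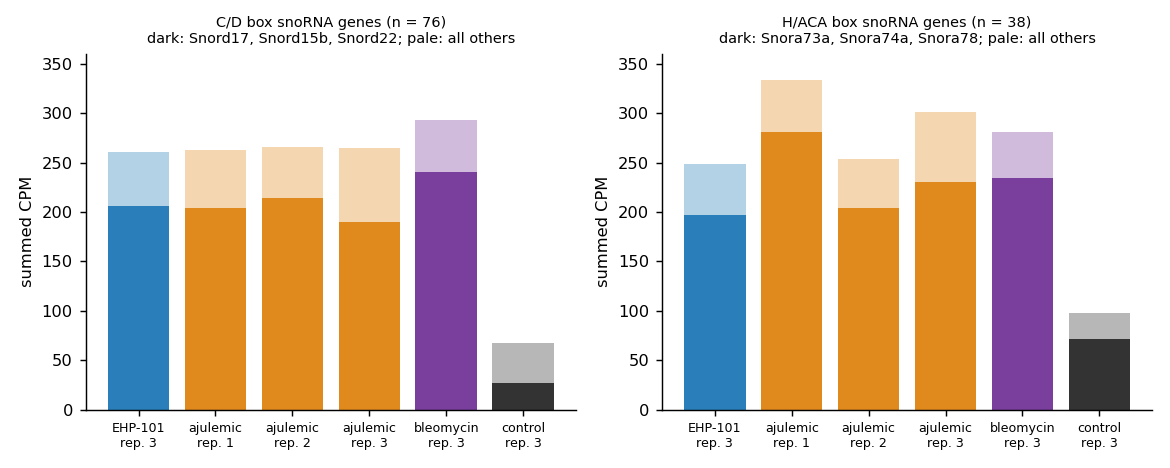
Summed level (CPM, linear axis from 0) of all 76 C/D and all 38 H/ACA snoRNA genes, 1 bar per library, with the 3 most abundant genes of each class in the dark part. The control bars stand at 67.9 and 97.6 CPM, below every other bar, and most of the gap lies in the dark part.

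A few members made up most of these sums, except the C/D sum of the control library, where the 5 most abundant C/D genes held 46.9%. Snord17 held 49.8% of the C/D sum with EHP-101, 44.8, 52.6 and 41.2% with ajulemic acid and 58.6% with bleomycin, but 13.3% in the control library. Snora73a held 53.2% of the H/ACA sum with EHP-101, 59.3, 66.9 and 50.0% with ajulemic acid and 63.3% with bleomycin, and 61.2% in the control library. Snord17 made up 61.8% of the difference between the mean of the other 5 C/D sums and the control sum. Of the H/ACA difference Snora73a made up 56.9% and Snora74a 25.5%, so in both classes a few genes carried most of it. Without the 5 most abundant snoRNA genes, a choice made after seeing the data, the remaining C/D genes summed to 54.9 CPM with EHP-101, 59.3, 51.9 and 74.9 CPM with ajulemic acid and 52.4 CPM with bleomycin, against 40.9 CPM in the control library. The remaining H/ACA genes summed to 61.7 CPM with EHP-101, 69.6, 59.7 and 83.0 CPM with ajulemic acid and 59.4 CPM with bleomycin, against 34.0 CPM in the control library. The control sum was then 69.7% of the mean of the others for C/D genes and 51.0% for H/ACA genes.

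Snord17, which guides methylation of the large ribosomal RNA in human cells, had 129.7 CPM with EHP-101, 118, 139.99 and 109 CPM with ajulemic acid and 172 CPM with bleomycin, against 9.001 CPM in the control library. The control library was far below the other 5, and their mean was 14.8 times its level, with an exact Poisson 95% interval of 7.56 to 10.6 CPM for the control value that covers counting error only. The bleomycin library was the highest of the 6. The log2 fold change was 4.25 (SE 0.29) for bleomycin over control. Here and below, SE was derived from the test statistic and holds no spread among control or among bleomycin libraries. Snord15b, a methylation guide of the U15 family, had 48.6 CPM with EHP-101, 45.7, 46.0 and 51.7 CPM with ajulemic acid and 44.7 CPM with bleomycin, against 10.5 CPM in the control library. Its neighbour in the same host, Snord15a, had 9.89 CPM with EHP-101, 10.2, 8.31 and 12.2 CPM with ajulemic acid and 8.28 CPM with bleomycin, against 1.71 CPM in the control library. Both were lowest in the control library, and their log2 fold changes for bleomycin over control were 2.09 (SE 0.23) and 2.27 (SE 0.41).

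Snord22 (U22), needed for maturation of the small ribosomal RNA in Xenopus, had 27.3 CPM with EHP-101, 40.2, 28.2 and 29.0 CPM with ajulemic acid and 24.2 CPM with bleomycin, against 7.56 CPM in the control library. It too was lowest in the control library, with a log2 fold change of 1.68 (SE 0.35) for bleomycin over control. Among the next C/D genes by level the gap was smaller, and in Snord100 it was absent. Snord100, whose sequence is shown above, had 1.95 CPM with EHP-101, 2.45, 2.24 and 3.04 CPM with ajulemic acid and 2.70 CPM with bleomycin, against 3.09 CPM in the control library, which was the highest of the 6. Snord96a had 2.26 CPM with EHP-101, 1.91, 1.89 and 2.64 CPM with ajulemic acid and 1.54 CPM with bleomycin, against 1.51 CPM in the control library, and Snord2 had 2.62 CPM with EHP-101, 1.77, 2.35 and 2.54 CPM with ajulemic acid and 1.67 CPM with bleomycin, against 1.45 CPM in the control library. In both the control value lay just under the bleomycin value. Snord47 had 2.32 CPM with EHP-101, 1.91, 2.06 and 2.89 CPM with ajulemic acid and 2.44 CPM with bleomycin, against 1.12 CPM in the control library.

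Among the H/ACA genes, Snora73a (U17), whose yeast counterpart is needed to make the small ribosomal RNA, had 132 CPM with EHP-101, 198, 169 and 151 CPM with ajulemic acid and 178 CPM with bleomycin, against 59.7 CPM in the control library. The mean of the other 5 was 2.77 times the control level, and the log2 fold change was 1.57 (SE 0.26) for bleomycin over control. Snora74a (U19), a pseudouridine guide for the large ribosomal RNA in human cells, had 54.9 CPM with EHP-101, 66.0, 24.2 and 67.7 CPM with ajulemic acid and 43.6 CPM with bleomycin, against 3.88 CPM in the control library. Here the ajulemic acid libraries did not stand together, replicate 2 being lower than the bleomycin and EHP-101 libraries while replicates 1 and 3 were the highest of the 6, and the mean of the 5 was 13.2 times the control level. Snora78 had 10.1 CPM with EHP-101, 16.8, 10.9 and 12.1 CPM with ajulemic acid and 13.0 CPM with bleomycin, against 7.82 CPM in the control library, the smallest gap among the abundant H/ACA genes, at 1.61 times.

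Snora68, a pseudouridine guide, had 4.94 CPM with EHP-101, 5.80, 6.54 and 6.93 CPM with ajulemic acid and 6.55 CPM with bleomycin, against 0.920 CPM in the control library. Snora7a, in Rpl32, had 5.004 CPM with EHP-101, 4.84, 6.94 and 5.19 CPM with ajulemic acid and 5.26 CPM with bleomycin, against 1.45 CPM in the control library. Both were lowest in the control library with no overlap, and the mean of the other 5 was 6.69 and 3.77 times the control level. Snora23, in Ipo7, had 6.16 CPM with EHP-101, 4.91, 2.69 and 9.28 CPM with ajulemic acid and 2.50 CPM with bleomycin, against 0.788 CPM in the control library, so it ranged widely among the treated libraries as Snora74a did. Snora81 and Snora61 had 2.75 and 1.95 CPM with EHP-101, 3.0002 to 4.69 and 2.54 to 3.27 CPM with ajulemic acid and 2.37 and 2.31 CPM with bleomycin, against 0.920 and 1.58 CPM in the control library. Per counted length, as CPM per kilobase averaged over the 5 libraries that received bleomycin, Snora73a stood highest at 808. Snord17 followed at 605, Snord15b at 327, Snora74a at 259 and Snord22 at 236. The order differed in the control library, where Snora73a at 291 was followed by Snord15b at 72.5, Snord22 at 60.0, Snora78 at 49.8 and Snord100 at 45.4, with Snord17 at 40.7 and Snora74a at 19.6.

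**Figure D2:**
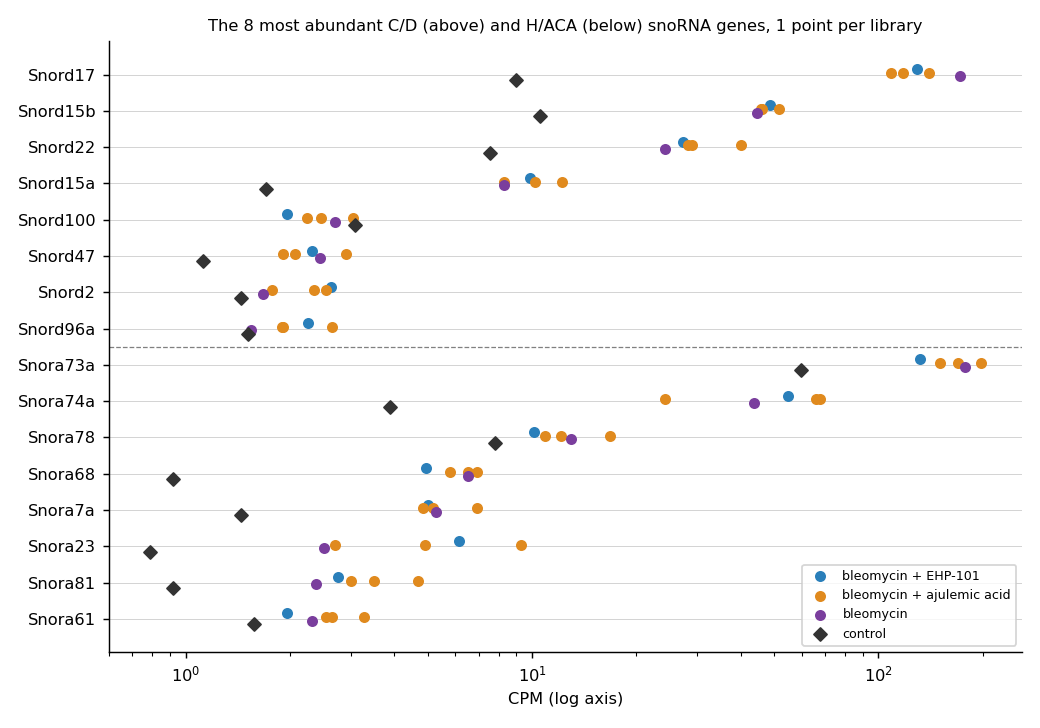
Level (CPM, log axis) of the 8 most abundant genes of each class, 1 point per library, with C/D genes above the dashed line and H/ACA genes below it. The control diamond lies left of all other points in 15 of the 16 genes, and for Snord100 it is the highest.

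Over the tested members, 12 of 46 C/D and 12 of 29 H/ACA genes were at least 2-fold higher in the bleomycin library than in the control library, against 7.75% of all 17377 genes tested, and 2 of 46 (Snord19 and Snord85) and 0 of 29 were at least 2-fold lower, against 7.1%. With EHP-101, 12 C/D and 13 H/ACA genes were at least 2-fold higher than in control (5.46% of all genes) and 1 and 1 lower (4.58%), and with ajulemic acid 13 and 15 were higher (4.41%) and 0 and 0 lower (4.15%). These 3 comparisons share the 1 control library and are 1 observation of it, not 3. The control library was the lowest of the 6 for 18 of 46 C/D genes and 20 of 29 H/ACA genes, against 22% of all genes, and the highest for 3 and 0, against 17.9%. The median log2 fold change of bleomycin over control was 0.11 for C/D genes and 0.73 for H/ACA genes, against -0.01 for all genes, and the C/D value was 0.19 without ajulemic acid replicate 1 and 0.05 without replicate 2. For EHP-101 over control the medians were 0.24 and 0.82 against 5e-04 for all genes, and for ajulemic acid over control 0.46 and 1.14 against 0.04 for all genes. In bleomycin over control edgeR called 0 members (0% of all genes), 5 C/D and 4 H/ACA genes were higher at an unadjusted p under 0.05 (4.7%) and 0 lower (2.1%), and DESeq2 called 7 (0.95%). In EHP-101 over control edgeR called 0 members (0% of all genes), 6 and 9 were higher at an unadjusted p under 0.05 (2.92%) and 0 lower (1.71%), and DESeq2 called 5 (0.691%). In ajulemic acid over control edgeR called 0 members (0.0345% of all genes), 7 and 9 were higher at an unadjusted p under 0.05 (3.02%) and 0 lower (4.1%), and DESeq2 called 7 (1.59%). Since the control level led to the choice of these genes, nothing is read from these counts beyond the description.

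The difference was not even across the class. Annotated length is that of the counted span, which differed from the GENCODE transcript in many members. Snora78 was 157 bp as counted and 128 bp as a transcript, and Snora7a was 129 and 140 bp. By transcript length Snora78 would leave the class of 140 bp or more and Snora7a would enter it. By counted length, the 8 tested members of 140 bp or more had a median log2 fold change of 1.87 for bleomycin over control. The control library was lowest for 8 of 8. The 24 members of at least 100 but under 140 bp had a median of 0.65 and control lowest for 15, and the 43 members under 100 bp a median of 0.10 and control lowest for 15. Across the 75 genes the Spearman correlation of the log2 fold change was 0.54 with length and 0.56 with mean CPM, a description of points that share the same libraries. The 10 tested members with a mean of 4 CPM or more had a median of 1.97 and control lowest for 10. Mean CPM includes the libraries in which these genes were high. Length and level were not separated here.

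The members of 140 bp or more, 9 genes, summed to 394 CPM with EHP-101, 462, 405 and 417 CPM with ajulemic acid and 464 CPM with bleomycin, against 94.3 CPM in the control library. The 75 members under 100 bp summed to 51.1 CPM with EHP-101, 57.3, 52.5 and 71.5 CPM with ajulemic acid and 52.6 CPM with bleomycin, against 41.7 CPM in the control library. The long members carried most of the gap. Length and class were entangled, since most C/D genes were short: 41 of the 46 tested C/D genes were under 100 bp, with a median of 0.03, and the 3 C/D genes of 140 bp or more, Snord17, Snord15a and Snord15b, had a median of 2.27.

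**Figure D3:**
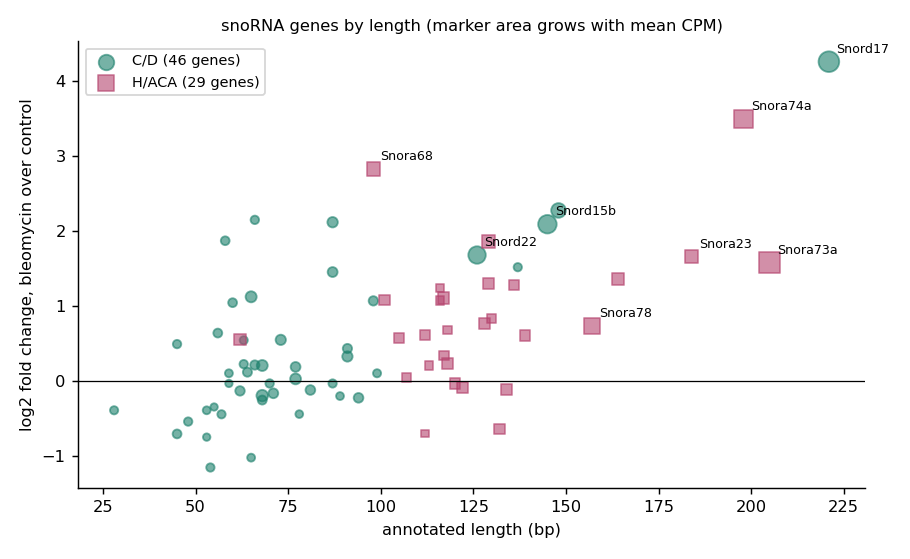
Log2 fold change of bleomycin over control (vertical axis) against annotated length in bp (horizontal axis) for the 46 C/D and 29 H/ACA genes tested, with marker area growing with mean CPM. All 8 genes of 140 bp or more lie above 0, whereas genes under 100 bp scatter around a median of 0.10.

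The host genes did not show this gap. Of the 75 tested members, 70 lay in a host gene that was itself tested, 51 hosts in all. Over these, the median log2 fold change of bleomycin over control was 0.28 for the snoRNA genes and -0.05 for the hosts, whose values ran from -0.64 to 0.35, with 0 hosts at least 2-fold higher. Snx5, an endosomal sorting nexin that holds Snord17, had 111 CPM with EHP-101, 104, 126 and 138 CPM with ajulemic acid and 105 CPM with bleomycin, against 126 CPM in the control library. Rps3, the ribosomal protein gene that holds Snord15a and Snord15b, had 449.9 CPM with EHP-101, 485, 466 and 559.8 CPM with ajulemic acid and 501 CPM with bleomycin, against 477 CPM in the control library. In both hosts the control value lay inside the range of the other 5. The noncoding hosts of Snora73a (Snhg3) and Snora78 (Snhg9) had at most 14 counts and 1 count in any library, so the spliced host was barely seen where the snoRNA was abundant. Snhg4, the host of Snora74a, had 9.95 CPM with EHP-101, 10.1, 8.77 and 12.3 CPM with ajulemic acid and 10.8 CPM with bleomycin, against 10.2 CPM in the control library. Across the 70 pairs the Spearman correlation of snoRNA and host log2 fold change was 0.15, given as a description over genes of the same libraries.

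**Figure D4:**
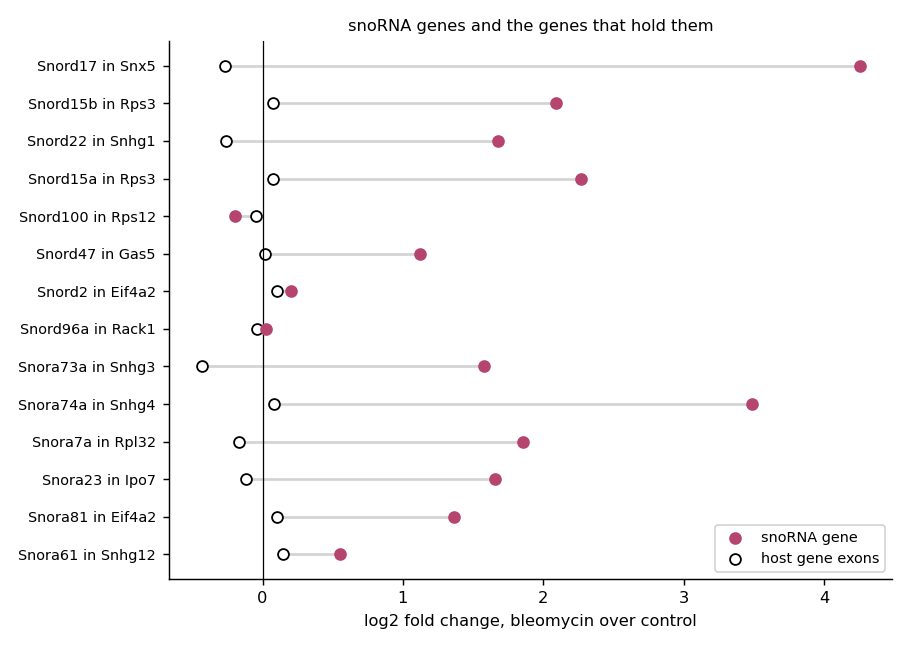
Log2 fold change of bleomycin over control for most of the abundant snoRNA genes (filled points) and the exons of the genes that hold them (open points), joined by grey bars. Open points lie within -0.64 and 0.35, whereas the filled points reach 4.25 for Snord17.

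The 3 comparisons that leave out the control library did not choose the members and were tested. No snoRNA gene passed in EHP-101 over bleomycin: 0 of 75 reached an adjusted p of 0.05 by edgeR (0% of all genes), 0 were under an unadjusted p of 0.05 (0.575% of all genes higher and 1.32% lower), and 0 were called by DESeq2 (0.0575% of all genes). The smallest adjusted p of a member was 0.9998. The median log2 fold change was 0.03 for C/D genes and 0.06 for H/ACA genes, against -3e-04 for all genes. At least 2-fold higher were 1 C/D and 3 H/ACA genes, against 5.26% of all genes, and at least 2-fold lower were 0, against 4.02%. With 1 library in each of these groups the spread came from the ajulemic acid libraries alone.

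In ajulemic acid over bleomycin, too, 0 of 75 members passed by edgeR (0% of all genes), 0 were under an unadjusted p of 0.05 (0.622% of all genes higher and 3.21% lower) and 0 were called by DESeq2 (0.593%), with a smallest adjusted p of 0.998. The medians were 0.29 for C/D and 0.27 for H/ACA genes, against 0.02 for all genes. Without ajulemic acid replicate 3 they were 0.14 and 0.07, and without replicate 2 they were 0.47 and 0.38. Without replicate 1 they were 0.30 and 0.20, so their size depended on single libraries. In all, 32 of 46 C/D and 22 of 29 H/ACA genes lay above 0, against 52.8% of all genes. The bleomycin library was below all 3 ajulemic acid libraries for 20 of 46 C/D and 10 of 29 H/ACA genes, against 22.9% of all genes, and above all 3 for 6 and 1, against 24.6%. At least 2-fold higher with ajulemic acid were 4 C/D genes (Snord57, Snord19, Snord70 and Snord42b) and 4 H/ACA genes (Snora23, Snora21, Snora34 and Snora15), against 4.35% of all genes, and 0 were at least 2-fold lower, against 3.94%. Apart from Snora23, these had a mean under 4 CPM.

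In EHP-101 over ajulemic acid, 0 of 75 members passed by edgeR (0% of all genes), 0 were under an unadjusted p of 0.05 (1.97% of all genes higher and 0.397% lower) and 0 were called by DESeq2 (0.368%). The medians were -0.19 for C/D and -0.24 for H/ACA genes, against -0.02 for all genes. Without ajulemic acid replicate 3 they were -0.05 and 0.06, so leaving out 1 library turned the direction of the H/ACA median, and without replicate 2 the C/D median was -0.32. At least 2-fold higher were 0 members, against 2.87% of all genes, and at least 2-fold lower were 2, Snord95 and Snord42b, against 1.81%. The EHP-101 library was below all 3 ajulemic acid libraries for 14 of 46 C/D and 8 of 29 H/ACA genes, against 19.8% of all genes, and above all 3 for 2 and 4, against 18.3%. The bleomycin, EHP-101 and ajulemic acid libraries enter these comparisons in pairs and so share libraries. A p that misses the threshold does not show that the groups were alike.

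The members of smallest p in these comparisons were mostly at the low end of the counts. Snora34 had 21 counts with EHP-101, 13, 8 and 16 with ajulemic acid, 5 with bleomycin and 3 in control, a log2 fold change of 1.97 (SE 0.80) for EHP-101 over bleomycin. Snora15 had 14 counts with EHP-101, 11, 10 and 23 with ajulemic acid, 5 with bleomycin and 2 in control, and its log2 fold change for EHP-101 over bleomycin was 1.39 (SE 0.85). In both the bleomycin library was below all 4 libraries that also received a cannabinoid. Snord19 had 11 counts with EHP-101, 13, 13 and 15 with ajulemic acid, 5 with bleomycin and 11 in control, and Snord70 had 6 with EHP-101, 10, 8 and 10 with ajulemic acid, 3 with bleomycin and 5 in control, with log2 fold changes of 1.28 (SE 0.59) and 1.46 (SE 0.75) for ajulemic acid over bleomycin. For both the bleomycin library was the lowest of the 6. Snord71 had 17 counts with EHP-101, 7, 14 and 21 with ajulemic acid, 20 with bleomycin and 18 in control, and its log2 fold change was -0.70 (SE 0.57) for ajulemic acid over bleomycin.

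Snord17 and Snora73a, the most abundant members, had smaller standard errors, while those of Snora74a (0.76 for EHP-101 over bleomycin) and Snora23 (0.90) were as large as for the low members. Snord17 had a log2 fold change of -0.41 (SE 0.25) for EHP-101 over bleomycin and -0.49 (SE 0.20) for ajulemic acid over bleomycin, with the bleomycin library above all 4 libraries that received a cannabinoid. Snora73a had -0.43 (SE 0.26) for EHP-101 over bleomycin and -0.04 (SE 0.21) for ajulemic acid over bleomycin. Between the agents, Snord17 differed by 0.09 (SE 0.20) and Snora73a by -0.38 (SE 0.21) for EHP-101 over ajulemic acid, with the EHP-101 value of Snora73a below all 3 ajulemic acid values. In the same comparison Snord95 had 9 counts with EHP-101 and 18, 15 and 26 with ajulemic acid, or -1.03 (SE 0.55) as a log2 fold change, and Snord83b had 13 counts with EHP-101 and 21, 24 and 34 with ajulemic acid. Snora70 had 2.93 CPM with EHP-101 and 2.18, 1.66 and 2.69 CPM with ajulemic acid, so the EHP-101 library lay above all 3 by a small margin.

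**Figure D5:**
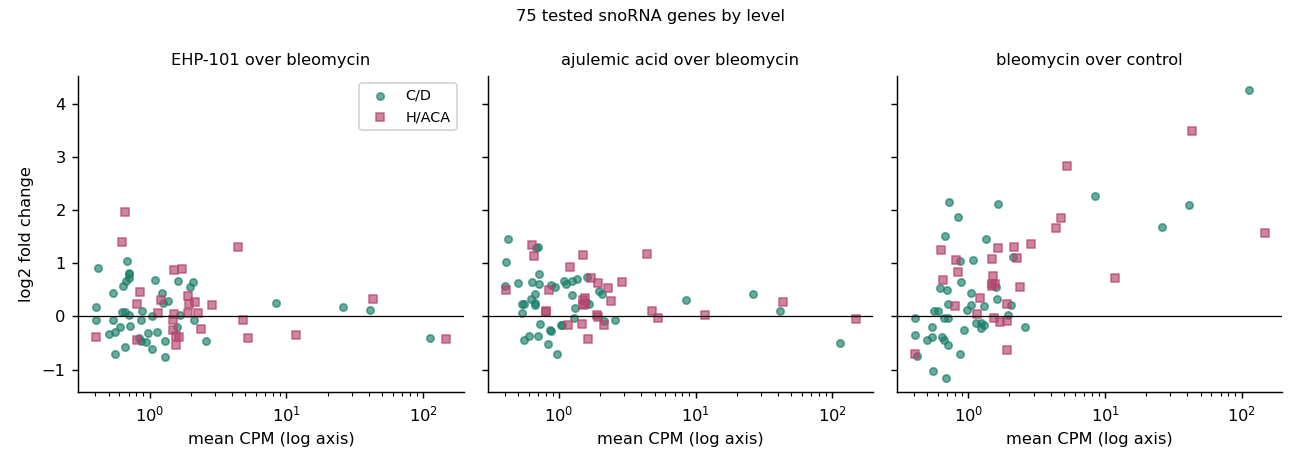
Log2 fold change of the 75 tested snoRNA genes against mean CPM (log axis) for EHP-101 over bleomycin, ajulemic acid over bleomycin and bleomycin over control, from left to right. In the left and middle panels the abundant genes lie within -0.49 and 0.42 except Snora23, at 1.30 and 1.17, whereas in the right panel Snord17 lies at 4.25. Mean CPM includes the 5 libraries in which these genes were high, so the slope of the right panel is in part fixed by its axis.

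Within the ajulemic acid group, replicate 2 was the lowest of the 3 libraries for 30 of 46 C/D and 16 of 29 H/ACA genes, against 40% of all genes, and replicate 3 was the highest for 27 and 21, against 40.2%. Snora74a and Snora23 were the abundant members that varied most within the group, at 52.7 ± 24.6 and 5.63 ± 3.35 CPM (SD, n = 3), whereas Snord15b was at 47.8 ± 3.39 CPM. Hair shaft markers, 5 of 6 listed genes, moved with them: they summed to 849 CPM with EHP-101, 1034, 78.1 and 2304 CPM with ajulemic acid and 70.2 CPM with bleomycin, against 1403 CPM in the control library. The libraries low in hair shaft markers, ajulemic acid replicate 2 and bleomycin, were also the lowest of the treated libraries for Snora74a and Snora23, but the control library was high in these markers and low in both snoRNA genes. The part of hair content in these snoRNA levels was not tested.

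Most genes of the core proteins that bind snoRNAs were not low in the control library. Of the 8 core protein genes, 0 were higher in the bleomycin library than in the control library, with a median log2 fold change of -0.59, against -0.01 for all genes. Fbl (fibrillarin, the methyltransferase of C/D particles) had 11.8 CPM with EHP-101, 12.0 ± 2.38 CPM with ajulemic acid (SD, n = 3) and 9.18 CPM with bleomycin, against 9.46 CPM in the control library. Its partners Nop56 and Nop58 had 31.4 and 47.2 CPM with EHP-101, 31.1 ± 9.50 and 53.6 ± 10.97 CPM with ajulemic acid and 20.9 and 42.3 CPM with bleomycin, against 32.6 and 61.6 CPM in the control library. The control library thus stood at or above the bleomycin library for all of them. Of the C/D genes, 26 of 46 were higher with bleomycin than in control, near the 49.5% of all genes. Of the H/ACA genes, 24 of 29 were higher. Snu13, which binds the box motif itself, had 3.84 CPM with EHP-101, 5.49 ± 1.51 CPM with ajulemic acid and 4.49 CPM with bleomycin, against 7.10 CPM in the control library.

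The H/ACA proteins were similar. Dkc1 (dyskerin, the pseudouridine synthase) had 31.6 CPM with EHP-101, 32.8 ± 5.65 CPM with ajulemic acid and 25.3 CPM with bleomycin, against 42.1 CPM in the control library. Nhp2 had 28.9 CPM with EHP-101, 34.7 ± 5.08 CPM with ajulemic acid and 30.2 CPM with bleomycin, against 36.4 CPM in the control library. Nop10 and Gar1 had 12.1 and 8.97 CPM with EHP-101, 14.2 ± 2.11 and 7.97 ± 3.03 CPM with ajulemic acid and 11.4 and 5.45 CPM with bleomycin, against 18.1 and 6.44 CPM in the control library. In EHP-101 over bleomycin 6 of 8 core genes were above 0, with a median of 0.24, against a median of -3e-04 for all genes. In ajulemic acid over bleomycin 8 of 8 were above 0 (52.8% of all genes), with a median of 0.36, against 0.02 for all genes. None of the 8 passed by edgeR in any comparison, and 0 reached an unadjusted p of 0.05.

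Of 15 genes for assembly and maturation of the particles, among them Tcof1 and Nolc1, 1 was higher with bleomycin than in control (median -0.30). Above 0 were 12 in EHP-101 over bleomycin (median 0.24) and 13 in ajulemic acid over bleomycin (median 0.25). Over control, 6 were higher with EHP-101 (median -0.04) and 7 with ajulemic acid (median -0.04). Of 20 genes of the U3 processome and the nucleolus, among them Ncl (nucleolin) and Npm1 (nucleophosmin), 4 were higher with bleomycin than in control (median -0.19). Above 0 were 20 in EHP-101 over bleomycin (median 0.24) and 19 in ajulemic acid over bleomycin (median 0.25). Over control, 13 of the 20 were higher with EHP-101 (median 0.09) and 11 with ajulemic acid (median 0.02). Of all genes, 49.5% were higher with bleomycin than in control and 52.8% were above 0 in ajulemic acid over bleomycin. For EHP-101 over bleomycin this share was not computed, and the median of all genes was -3e-04. Ncl had 248 CPM with EHP-101, 224, 215 and 284 CPM with ajulemic acid and 204 CPM with bleomycin, against 191 CPM in the control library, where it was lowest. Of the noncoding snoRNA hosts 19 of 20 were tested, and 12 were higher with bleomycin than in control, with a median of 0.08. Gas5, the host of Snord47 and several other C/D genes, had 106 CPM with EHP-101, 109, 97.5 and 136 CPM with ajulemic acid and 99.8 CPM with bleomycin, against 98.8 CPM in the control library. None of these genes passed by edgeR, and at an unadjusted p under 0.05 there were 0 of the assembly and nucleolus genes in any comparison and 1 noncoding host each in ajulemic acid over bleomycin, EHP-101 over ajulemic acid and ajulemic acid over control.

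Other short noncoding RNAs were low in the control library as well. Of 31 listed, 20 were tested, and 17 of these were higher in the bleomycin library than in control, 11 of them at least 2-fold (7.75% of all genes), with a median of 1.21, and 1 was at least 2-fold lower (7.1%). Rn7sk, an RNA that holds back the elongation factor P-TEFb, had 8122 CPM with EHP-101, 12110.0, 11227 and 8349 CPM with ajulemic acid and 9971 CPM with bleomycin, against 5145 CPM in the control library. Rmrp, the RNA of the RNase MRP that cuts pre-ribosomal RNA, had 1935 CPM with EHP-101, 2273, 2044 and 2278 CPM with ajulemic acid and 2067 CPM with bleomycin, against 498 CPM in the control library. Neither RNA belongs to a snoRNA class or comes from an intron, and both were lowest in the control library. Of the genes under 250 bp to which RefSeq gives a gene type, other than the members, 87 were tested. Their median was 0.38, and 27.6% were at least 2-fold higher with bleomycin than in control. Listed short RNAs of that length were not taken out of this set, so it is not a separate observation. Protein-coding genes of at least 250 but under 500 bp, 143 in number, had a median of -0.51, so the shortest messenger RNAs were not low in the control library. Of the 20 listed short RNAs 0 passed by edgeR, and 10 were at an unadjusted p under 0.05 in bleomycin over control, in either direction (4.7% of all genes higher and 2.1% lower). The part of RNA length in these levels was not tested.

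Some library properties stood beside the control values. Mitochondrial ribosomal RNA took 17.9% of the counts with EHP-101, 17.3, 26.1 and 18.5% with ajulemic acid and 19.8% with bleomycin, against 26.5% in the control library. Ajulemic acid replicate 2 was near the control library in this share, and its C/D sum was 266 CPM and its H/ACA sum 253 CPM. With library totals in place of TMM its sums were 249 and 237 CPM, each the lowest of the 5 libraries that received bleomycin. The control sums were then 65.8 and 94.5 CPM. The part of this share in the snoRNA levels was not tested. Hepatocyte transcripts, 9 of 9 listed genes led by Alb, summed to 572 CPM with EHP-101, 7.91, 15.2 and 2.79 CPM with ajulemic acid and 607 CPM with bleomycin, against 899 CPM in the control library, with Fgb at 0 in ajulemic acid replicates 1 and 3. Among the libraries that received bleomycin, the C/D sums were 261 and 293 CPM where these transcripts were present and 263, 266 and 265 CPM where they were near 0. The H/ACA sums in the same order were 249 and 281 CPM and 333, 253 and 301 CPM. The libraries near 0 were those of the ajulemic acid group, so hepatocyte content and group cannot be told apart here. Adipocyte markers (5 of 5 listed) summed to 1138 CPM with EHP-101, 809, 891 and 612 CPM with ajulemic acid and 674 CPM with bleomycin, against 1770.3 CPM in the control library. Skeletal muscle markers (6 of 6) summed to 4547 CPM with EHP-101, 3038, 4512 and 2291 CPM with ajulemic acid and 5099.5 CPM with bleomycin, against 1943 CPM in the control library. Dermal fibroblast markers (5 of 5) summed to 3626.5 CPM with EHP-101, 3756, 4776 and 3266 CPM with ajulemic acid and 6726.5 CPM with bleomycin, against 6275 CPM in the control library. Red blood cell markers (4 of 5 listed) summed to 10.6 CPM with EHP-101, 10.2, 14.4 and 9.53 CPM with ajulemic acid and 11.9 CPM with bleomycin, against 44.7 CPM in the control library, with Hba-a1 at 0 in all libraries but EHP-101. The control library was thus the highest in hepatocyte, adipocyte and blood markers and the lowest in muscle and epidermal markers, and the part of this in its snoRNA levels was not tested.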

How the data were processed

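The authors deposited raw counts per gene for the 6 skin libraries, which the series description credits to featureCounts. Per the labels' protocols, 300 ng of total RNA per sample was purified on RNeasy columns and made into stranded libraries depleted of ribosomal RNA, read as single ends of 50 bp. The build was mm10, and the submitters' processing notes name featureCounts 1.6.1, HISAT2 2.1.0, DESeq2 1.20.0 and Trimmomatic 0.36. How strand, multiple matches and overlapping genes were handled in counting is not given in the sources used here, which touches snoRNA genes with close copies or inside exons.

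Groups came from the sample titles. A merged table gave the same counts (0 values differed), and 6 sample columns in it that belong to no sample here were left out. Symbols were found in RefSeq for 25275 gene numbers and in GENCODE for 18, and 1886 had none. The members and gene lists were chosen with earlier results of these data known.

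Counts were tested with edgeR 4.0.16 (R 4.3.3): filterByExpr with a minimum count of 10 (17377 genes), TMM scaling, robust quasi-likelihood tests (two-sided) on 1 model of all 6 libraries. P-values were adjusted after Benjamini-Hochberg over all genes in each of 6 comparisons, and calls needed an adjusted p under 0.05. Only the ajulemic acid group gave residual degrees of freedom, 2 in number. Each SE was the absolute log2 fold change divided by the square root of the F value of its test. It therefore rests on the same degrees of freedom and is not the spread within a group of 1 library. The procedure was also run on simulated counts that had the spread fitted here, so that run cannot show how the tests hold for groups of 1 library. CPM are counts scaled to TMM-adjusted library size, and intervals are exact Poisson at 95%, covering counting error only. Named genes were the 8 most abundant members of each class with their hosts, the 2 of smallest p in each direction in comparisons without control, the snoRNP core genes, and the 2 most abundant genes of other lists (other names were chosen after their values were seen). Alternatives were RLE scaling, library totals, no ribosomal or mitochondrial rows, no filter, each ajulemic acid library left out, DESeq2 1.42.0, and sums without the most abundant gene or without exon overlaps. Leaving out the 5 most abundant genes or the control library was chosen after seeing the data. Snora74a is printed without a sequence, and 1 host gene is not reported here. Sequences are those of the GENCODE M21 transcripts, matched by position with at least 80% overlap.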

Additional observations from a re-analysis of the deposited data

How the results depend on the processing

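Against the edgeR counts of 0 members called, DESeq2 called 7 snoRNA genes in bleomycin over control, 5 in EHP-101 over control and 7 in ajulemic acid over control. Ajulemic acid over control also gave 1 with library totals and 4 with no filter on low counts. Leaving out 1 ajulemic acid library at a time gave 0 to 5 calls in bleomycin over control, 0 to 3 in EHP-101 over control and 0 to 6 in ajulemic acid over control, the highest each time without replicate 3 (without replicate 2 they were 2, 2 and 5), with 1 residual degree of freedom fewer. The comparisons without the control library kept 0 calls under every alternative run, the control library left out included. The control C/D sum stood at -1.99 on the log2 scale against the mean of the other 5 libraries, at -1.97 with RLE scaling, -2.04 with library totals, -1.98 without ribosomal and mitochondrial rows, -1.20 without Snord17 and -0.52 without the 5 most abundant genes. The H/ACA sum stood at -1.54, and at -0.97 without those 5. The C/D median of EHP-101 over bleomycin, 0.03, was -0.03 with no filter on low counts and 0.11 with library totals, and the H/ACA median was 0.14 with library totals. With library totals the median of all genes shifted to 0.13 in EHP-101 over control. The cause of these changes was not tested. No paired analysis was possible because the groups share only the replicate number 3. At this depth 39 of 114 members were too low to test, and the control level rests on 1 library.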

Other observations

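Rnu3a, a U3 gene whose symbol lies outside the member rule, had 82.4 CPM with EHP-101, 95.1, 33.9 and 100.2 CPM with ajulemic acid and 56.7 CPM with bleomycin, against 4.80 CPM in the control library. It was lowest in the control library and, among the ajulemic acid libraries, in replicate 2, as Snora74a was. U3 is the C/D RNA that starts the cutting of the ribosomal RNA precursor, as known from yeast and vertebrates. The Y RNAs Rny1 and Rny3, which bind the Ro protein, were also lowest in the control library. Rny1 had 10.9 CPM with EHP-101, 14.9, 9.12 and 19.9 CPM with ajulemic acid and 6.10 CPM with bleomycin, against 1.58 CPM in the control library. Rny3 had 19.0 CPM with EHP-101, 20.3, 13.1 and 28.3 CPM with ajulemic acid and 10.7 CPM with bleomycin, against 0.986 CPM in the control library.

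The Cajal body RNAs, which guide the modification of spliceosomal RNAs and were outside the member rule, divided. Scarna10 had 61.1 CPM with EHP-101, 100.2, 90.4 and 76.1 CPM with ajulemic acid and 79.5 CPM with bleomycin, against 11.8 CPM in the control library, and Scarna6 had 19.2 CPM with EHP-101, 22.3, 27.7 and 20.2 CPM with ajulemic acid and 21.9 CPM with bleomycin, against 4.21 CPM in the control library. Scarna13 had 17.7 CPM with EHP-101, 20.7, 21.2 and 17.4 CPM with ajulemic acid and 19.1 CPM with bleomycin, against 17.0 CPM in the control library. For Scarna9 and Terc, the telomerase RNA, the control value lay inside the range of the other 5: Scarna9 had 14.95 CPM with EHP-101, 15.8, 13.1 and 19.0 CPM with ajulemic acid and 13.1 CPM with bleomycin, against 14.2 CPM in the control library. Terc had 2.07 CPM with EHP-101, 3.07, 3.84 and 3.39 CPM with ajulemic acid and 2.57 CPM with bleomycin, against 2.63 CPM in the control library. These genes were named after their values were seen, and no test was made of the difference among them.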
